A study of Mus musculus with 4 samples.

Results

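The regions described here are the 1646 autosomal peaks of a tagged thyroid hormone receptor that lay deep inside long genes of the mouse striatum. A peak was included when its summit fell within the span of a protein-coding gene and more than 30 kb from both ends of every protein-coding gene, by RefSeq annotation of GRCm38. These deep peaks were 22.2% of the 7412 autosomal peaks (95% exact Clopper-Pearson interval 21.3 to 23.2), out of 7484 peaks in all. They fell in 895 of the 3864 autosomal genes that are long enough to hold any such position (23.2%), and 359 of these host genes held several. The gene with the most was Rbfox1, which encodes a neuronal splicing regulator, with 15, followed by Pde10a, the cyclic nucleotide phosphodiesterase gene characteristic of striatal projection neurons, with 12. Per megabase of such positions, peaks were densest in striatal projection neuron genes among the gene lists compared, and no deep peak lay in the microglia and vessel genes listed. The lists were drawn up with earlier results of these peaks known, so this ranking is a description and not a test.

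The data were 1 list of peaks from chromatin immunoprecipitation and sequencing (ChIP-seq) of GS-TRα1, a tagged form of thyroid hormone receptor alpha 1, on the Ion Proton system. All 4 libraries came from the striatum of mice of 1 labelled genotype, Gad2Cre with ThraGS: 1 input and 3 immunoprecipitated (IP) fractions taken on IgG-coated magnetic beads. Gad2-Cre is a driver of GABAergic neurons, which in the striatum include the projection neurons and the local interneurons. Age, the number of animals and any pooling are not stated in the labels. The list carries no value for a single library, and the spread between fractions is therefore unknown. No IP from untagged animals was analysed here, so receptor binding could not be told apart from recovery of chromatin by the beads. Intervals below cover counting error within this list only, because peaks are not replicates and PCR copies of a molecule may count as reads. They also treat peaks as independent of each other. Some peaks of 1 gene lie close together, with 155 of 758 gaps at most 10 kb. Where neighbouring peaks are not independent, the intervals are too narrow.

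Thyroid hormone receptors are nuclear receptors that bind short DNA elements called half-sites, alone or in pairs, usually together with a retinoid X receptor, and that recruit corepressors without hormone and coactivators with it. Much of the regulatory DNA they bind lies away from promoters, inside introns or between genes. Many of the longest mammalian genes encode proteins of neurons and synapses, so that introns of such genes make up a large part of the DNA inside genes.

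A small number of deep summits coincided with an annotated transcription start inside a long gene, and these are the members for which reference sequence could be shown. The window of each start ran from 250 bases before it to 50 after it, 300 bases in all, from the RefSeq tables of GRCm38.p6. A summit lay in such a window for 10 deep peaks (0.608%, interval 0.292 to 1.11). In 8 of the 10 the start belonged to the host gene itself. Both strands were searched for the half-site AGGTCA. The variant AGTTCA was searched in the same way, as were the variant GGGTCA and the variant GGTTCA, with overlaps allowed. The 4 windows printed here hold the densest set of half-sites among the 10, a start far from both gene ends, the peak of highest fold of the 10 and a window with no half-site. They run 5′ to 3′ on the strand of the gene, with half-sites of either strand in capitals.

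Rarb: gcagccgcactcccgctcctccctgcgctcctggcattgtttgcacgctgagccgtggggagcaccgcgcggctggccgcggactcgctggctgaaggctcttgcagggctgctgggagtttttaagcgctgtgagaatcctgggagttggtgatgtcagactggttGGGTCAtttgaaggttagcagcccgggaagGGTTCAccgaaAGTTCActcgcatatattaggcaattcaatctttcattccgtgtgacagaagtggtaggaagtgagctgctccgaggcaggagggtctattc
Kcnab1: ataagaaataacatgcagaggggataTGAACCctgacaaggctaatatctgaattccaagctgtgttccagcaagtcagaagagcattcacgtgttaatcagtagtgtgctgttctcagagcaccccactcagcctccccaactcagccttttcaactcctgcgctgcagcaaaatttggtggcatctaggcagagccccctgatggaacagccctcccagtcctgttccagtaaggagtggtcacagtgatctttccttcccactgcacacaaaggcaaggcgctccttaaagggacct
Gm16299: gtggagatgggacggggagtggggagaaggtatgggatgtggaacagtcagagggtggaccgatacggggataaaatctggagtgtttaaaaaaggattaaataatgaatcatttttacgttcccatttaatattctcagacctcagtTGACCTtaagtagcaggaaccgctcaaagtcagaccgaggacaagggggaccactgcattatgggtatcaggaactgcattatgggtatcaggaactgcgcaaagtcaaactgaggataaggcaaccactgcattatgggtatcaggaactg
Rreb1: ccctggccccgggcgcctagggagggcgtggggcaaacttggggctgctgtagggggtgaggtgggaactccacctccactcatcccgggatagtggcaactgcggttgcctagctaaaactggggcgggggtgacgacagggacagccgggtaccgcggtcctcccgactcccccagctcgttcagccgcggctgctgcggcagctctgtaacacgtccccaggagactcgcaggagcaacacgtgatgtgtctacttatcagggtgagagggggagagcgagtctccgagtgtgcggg

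Rarb encodes retinoic acid receptor beta, a nuclear receptor of striatal projection neurons. Its window lies on the minus strand of chromosome 14, at 16575427 to 16575726 of GRCm38.p6, at an internal start 145 kb from the nearer gene end. The peak itself spanned 16575405 to 16575630. It had a fold enrichment of 4.90 over local background and a pileup, the height of stacked fragments after scaling, of 13.15. Both values are the authors' own, as their peak caller gave them, here and for every peak below. The window held 3 half-sites, GGGTCA at base 168, GGTTCA at base 198 and AGTTCA at base 209, counted from the 5′ end, and the summit was at base 194. The last 2 form a direct repeat with 5 bases between them. A same-strand pair of any of the 4 half-sites with 0 to 8 bases between them was in 367 of all 32851 start windows (1.12%), and one with 5 bases between them in 32 (0.0974%). The spacing was noted after the sequence was seen and 10 windows were searched, so neither share measures how rare this find is.

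Kcnab1 encodes a beta subunit of voltage-gated potassium channels. Its window, on the plus strand of chromosome 3 at 65108764 to 65109063, held GGTTCA on the opposite strand at base 27, with the summit at base 193 and a fold of 5.49. Gm16299 is an annotated gene on the minus strand inside Rbm20, a splicing regulator gene. Its window, on chromosome 19 from base 53825163 to base 53825462, held AGGTCA on the opposite strand at base 149, with the summit at base 243 and a fold of 10.7. The Rreb1 window lies on the plus strand of chromosome 13, from 37825788 to 37826087. Its peak had a fold of 9.41, and the window held none of the 4 half-sites. Rreb1 encodes a zinc finger transcription factor.

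Among the 10 windows 5 held a half-site, against 43.7% of all windows. Single half-sites are common in windows of this length: AGGTCA was in 16.3%, AGTTCA in 13.99%, GGGTCA in 13.7% and GGTTCA in 10.4% of them. The match in these 10 windows was thus close to the background, and it says nothing of the other deep peaks, whose sequences were not searched. An annotated start of a gene of any type lay within 1 kb of 39 deep summits (2.37%, interval 1.69 to 3.22). Such positions made up 0.641% of the deep territory, the stretches of autosome that satisfy the position rule, and held 13.2 peaks per Mb (9.37 to 18.01). Of the 5766 other autosomal peaks, 1173 had a start that close (20.3%). Summits inside an annotated long non-coding RNA gene numbered 123 (7.47%), and 4.42% of the deep territory lay in such genes.

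Deep peaks were more frequent per megabase than peaks outside genes that were also beyond 30 kb from gene ends. The deep territory amounted to 462 Mb, or 19.0% of the 2429 Mb between the first and last genes of the 19 autosomes. Its density was 3.56 peaks per Mb, with an exact Poisson interval (95%) of 3.39 to 3.74. Intergenic positions beyond 30 kb held 1364 peaks, or 1.38 per Mb (1.31 to 1.46), and the ratio of the densities was 2.58 (exact conditional interval 2.40 to 2.77). This ratio pools all distances beyond 30 kb and is not matched on distance. Assembly gaps and stretches to which reads cannot be mapped were counted as territory here and in the distance ranges below. Mappability was not analysed. Beyond 400 kb lay 274 of the 987 intergenic Mb but 28.7 of the 462 deep Mb. Inside genes but within 30 kb of an end the density was higher, at 5.32 per Mb (5.12 to 5.52) from 2777 peaks. Intergenic positions within 30 kb held 3.54 per Mb (3.37 to 3.72), which did not differ from the deep density beyond its interval, with a ratio of 1.01 (0.939 to 1.08).

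The density of deep peaks declined with distance from the ends but stayed above the intergenic one in each of 5 distance ranges. Between 30 and 50 kb it was 4.05 per Mb inside genes (480 peaks) and 2.07 outside (256 peaks). Between 100 and 200 kb it was 3.43 inside and 1.75 outside. Beyond 400 kb it was 2.02 inside (58 peaks, 1.53 to 2.61) and 0.525 outside (144 peaks, 0.443 to 0.618), where the ratio reached 3.85. Over the 4 nearer ranges the ratio was between 1.96 and 2.12. The median deep summit was 76186 bp from the nearest end, with quartiles of 46113 and 140994 bp and a largest value of 965610 bp.

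**Figure D1:**
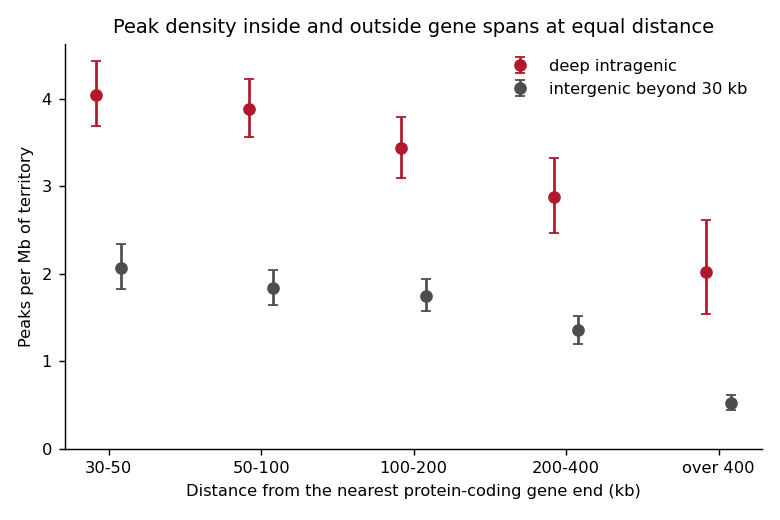
Peaks per Mb of territory against the distance from the nearest protein-coding gene end in kb, for deep intragenic positions and for intergenic positions. Points are densities and bars 95% exact Poisson intervals. Inside genes the density went from 4.05 to 2.02 per Mb and outside from 2.07 to 0.525.

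The 30 kb rule was a position threshold, and peaks just inside and just outside it had overlapping folds. The 5 nearest members lay in Daam1, Gm50595, Dglucy, Rerg and Galnt13 at 30007 to 30149 bp, with folds of 5.55, 7.22, 6.37, 7.85 and 10.7. The 5 nearest peaks on the other side lay in Kat2b, Parva, Smchd1, Itga6 and Arhgap26 at 29927 to 29994 bp, with folds of 15.8, 7.17, 8.23, 10.3 and 4.24.

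In width and height deep peaks were much like the rest of the list, and their shares above fixed values were close to those of all autosomal peaks. Their median width was 253 bp (interval of the median 248 to 257), with quartiles of 209 and 322 bp, and that of the other autosomal peaks was 262 bp (259 to 265), with quartiles of 209 and 331 bp. Distal intergenic peaks had the same median width, 253 bp, as deep peaks. The median pileup was 21.6 scaled fragments in both deep and other peaks, and upper quartiles were 30.05 and 31.93. The median fold was 6.79 (6.59 to 6.85) in deep peaks and 7.01 (6.91 to 7.17) in the others. The local background had a median of 2.00 in both sets.

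Shares above fixed values were slightly below those of all autosomal peaks, and not always beyond their intervals. Folds of 10 or more were seen in 356 deep peaks (21.6%, 19.7 to 23.7), where the share over all autosomal peaks was 24.0% and over the others 24.6%. Folds of 20 or more were seen in 48 (2.92%, 2.16 to 3.85), against 3.58% of all autosomal peaks, which lies within the interval. Pileups of 50 or more were seen in 108 (6.56%, 5.41 to 7.87), against 7.96% of all. Widths of 400 bp or more were seen in 178 (10.8%, 9.35 to 12.4), against 12.4% of all. Distal intergenic peaks had a like share of such widths, 10.9%, and 3.30% with folds of 20 or more. Their shares were higher for folds of 10 or more (25.4%) and pileups of 50 or more (8.94%). The highest deep pileup was 117.38, and within 30 kb of gene ends the highest was 131.46 inside genes and 154.94 outside. Among intergenic peaks beyond 30 kb it was 286.4, the highest of the 7412 autosomal peaks.

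**Figure D2:**
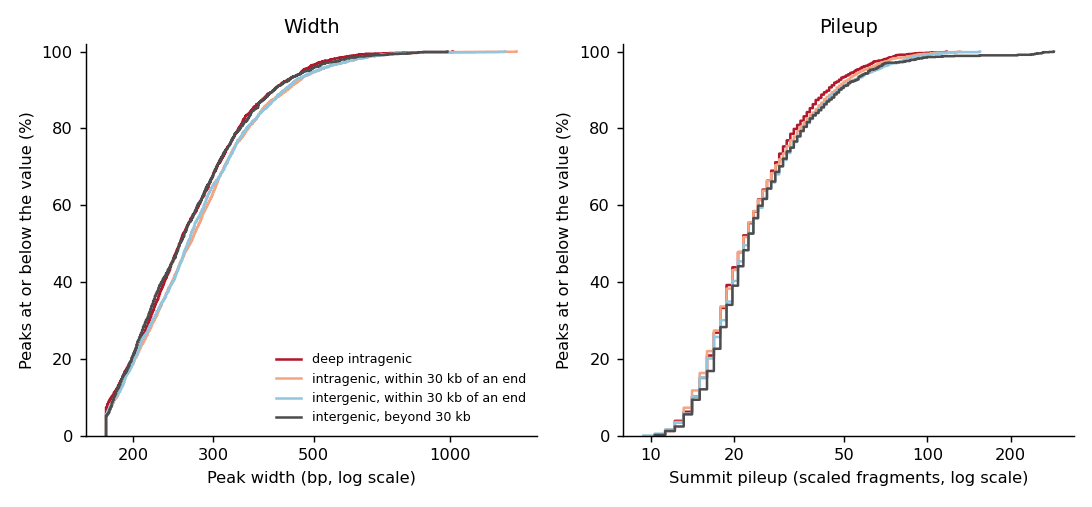
Cumulative share of peaks in percent against peak width in bp and against summit pileup in scaled fragments, both on log axes, for deep intragenic peaks and 3 other position classes. The curves nearly coincide, with medians of 253 and 262 bp for deep and all other autosomal peaks and a pileup of 21.6 in both.

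The strongest deep peaks had folds and pileups far above the medians. Spata13, a guanine nucleotide exchange factor gene, and Sik3, a salt-inducible kinase gene, shared the highest values, a fold of 40.98 and a pileup of 117.38. The Spata13 peak was on chromosome 14 at 60533681 to 60534118, 48.7 kb from the start of the gene, and the 3 further deep peaks of that gene had folds of 5.03, 5.80 and 4.12. The Sik3 peak was on chromosome 9 at 46098555 to 46099121, 86.0 kb from the start, beside folds of 6.52 and 7.53. Both genes thus held 1 peak far above their others. Ttll11, a tubulin glutamylase gene, had a fold of 40.0 on chromosome 2 at 35845899 to 35846348. Slc8a3, a sodium and calcium exchanger gene, had 36.4 on chromosome 12 at 81300407 to 81300850. Zfyve28, which encodes an endosomal FYVE domain protein, had 33.5 on chromosome 5 at 34253672 to 34254134.

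The 15 highest folds further included the following genes. Grid1, a delta glutamate receptor gene, had 34.2 on chromosome 14 at 35486087 to 35486737. Magi1, which encodes a junction and synapse scaffold, had 30.7. Ntrk2, the gene of the BDNF receptor TrkB, had 26.5 and 4 further deep peaks of 13.5, 6.75, 11.1 and 4.90. Itga9, an integrin subunit gene, had 27.3. Tbc1d22a had 28.8 and Tbc1d30 had 27.0, both genes of TBC domain proteins that act on Rab GTPases. Anks1 had 26.9, Wscd2 26.4 and Umad1 26.4. The Wscd2 peak was also the widest deep peak, with 1015 bp, followed by peaks in Myt1l (1009 bp), Iqch (866 bp), Slit3 (855 bp) and Prkce (787 bp).

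Several peaks in 1 gene were frequent among hosts. Of the 895 hosts, 185 had at least 3 deep peaks, 49 at least 5 and 6 at least 10, and the 359 with several held 1111 of the 1646 peaks. Host genes were long, with a median span of 218 kb against 101 kb for genes with deep territory and no deep peak. The share of genes that were hosts went from 8.21% at up to 50 kb of deep territory to 36.1% at 100 to 200 kb and 81.4% above 1000 kb. Density went the other way, from 4.63 peaks per Mb in the smallest territories to 2.46 in the largest. The number of peaks in a gene therefore followed its length only in part, and counts are given below with the density per Mb of deep territory, which was 3.56 over all genes.

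**Figure D3:**
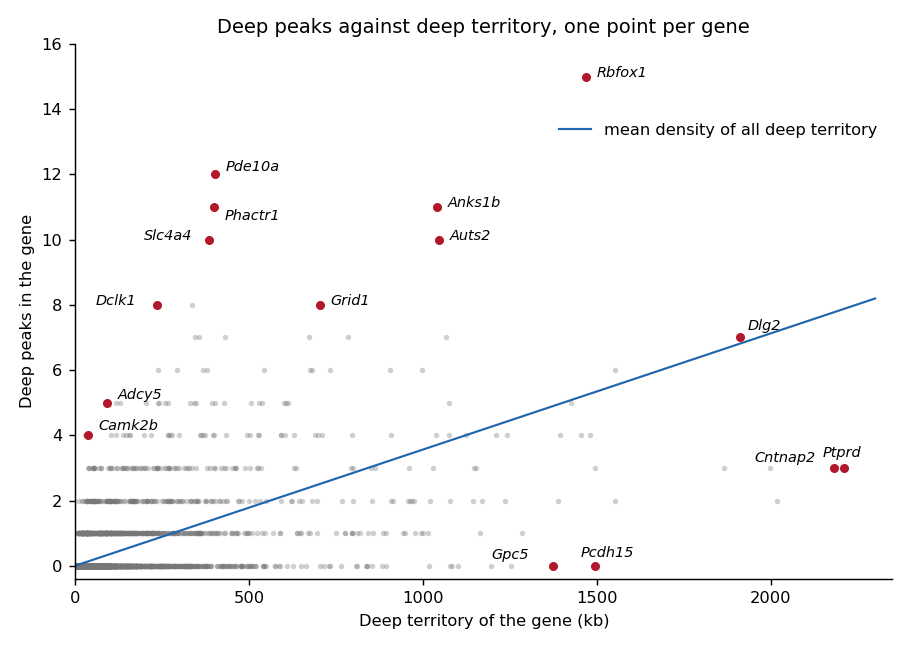
Number of deep peaks against deep territory in kb, 1 point per protein-coding gene with deep territory, with named genes in red. The line is the mean density of all deep territory, 3.56 per Mb. Pde10a, Phactr1 and Slc4a4 lie far above the line at about 400 kb, and Ptprd and Cntnap2, with the most territory, lie below it.

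Rbfox1 (chromosome 16, 5884793 to 7412480) had 15 deep peaks, or 10.2 per Mb (5.72 to 16.9), spread along a span of 1528 kb. Their folds, in order from the start of the gene, were 6.93, 4.48, 6.20, 4.48, 21.6, 6.96, 6.30, 10.8, 14.9, 5.46, 16.2, 5.46, 8.80, 5.27 and 5.50. Peaks of a fold of at least 10 were thus spaced among low ones and not gathered at one place. Rbfox1 had 1 further peak within 30 kb of its ends.

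Pde10a (chromosome 17, 8525187 to 8986648), whose enzyme breaks down cAMP and cGMP, had 12 deep peaks in 0.40 Mb of deep territory, or 29.9 per Mb (15.4 to 52.2). The list had no further peak within 30 kb of the ends of Pde10a. Its 3 highest peaks were on the side of the gene nearer the start, with folds of 19.5 at 107 kb, 29.6 at 134 kb and 21.4 at 218 kb. Folds of 12.8 and 6.28 were close to the highest, at 142 and 143 kb. Lower folds on that side were 5.74 at 53.2 kb and 4.95 at 204 kb, and further on lay 11.4 at 347 kb, 3.99 at 368 kb, 5.50 at 372 kb, 5.49 at 395 kb and 7.82 at 404 kb.

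Phactr1 (chromosome 13, 42680374 to 43138526), a regulator of actin and protein phosphatase 1, had 11 deep peaks, or 27.6 per Mb (13.8 to 49.4). Their folds from the start on were 7.62, 8.29, 14.4, 5.65, 5.87, 4.71, 11.7, 6.71, 5.22, 6.20 and 10.4, a narrower range than in Pde10a. Slc4a4 (chromosome 5, 88793858 to 89239656), the sodium bicarbonate cotransporter gene of astrocytes, had 10 deep peaks, or 25.9 per Mb. The first 4 lay between 136 and 153 kb from the start, with folds of 14.0, 21.3, 15.2 and 9.24, and the remaining 6 had folds of 4.71 to 7.82. Its higher peaks were thus gathered at 1 place. Dclk1, a microtubule-associated kinase gene on chromosome 3, had 8 deep peaks in 0.24 Mb, or 33.8 per Mb (14.6 to 66.6). The folds in Dclk1 were 6.85, 19.7, 9.90, 5.65, 9.12, 8.65, 4.52 and 7.22.

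**Figure D4:**
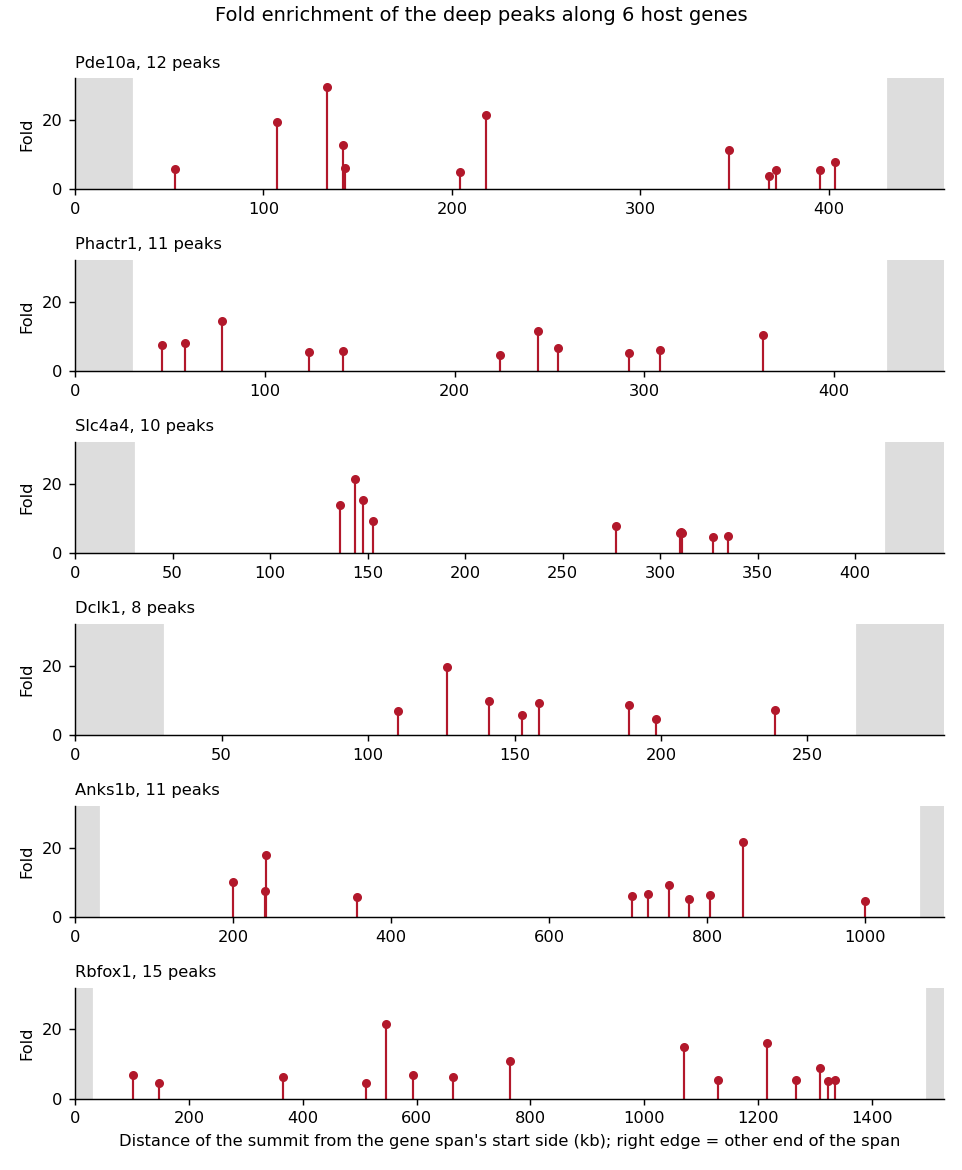
Fold enrichment of each deep peak against the distance of its summit from the start of the gene in kb, for 6 host genes. Grey marks the 30 kb at each end, which the position rule leaves out. Slc4a4 has its 4 highest peaks between 136 and 153 kb, and peaks of Rbfox1 and Phactr1 are spread along the gene.

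Anks1b (chromosome 10, 89872915 to 90973300), which encodes the postsynaptic protein AIDA-1, had 11 deep peaks, or 10.6 per Mb. Its highest folds were 21.55 and 17.9, and the other 9 were between 4.48 and 10.1. Auts2 (chromosome 5, 131437333 to 132543220), a neurodevelopmental regulator of transcription, had 10, with folds between 4.95 and 12.7. Grid1 had 8, and besides its fold of 34.2 these were between 4.09 and 10.1. Myt1l, a neuronal zinc finger factor gene, had 8, among them folds of 17.6, 17.1, 14.4 and 12.2, and 4 more peaks within 30 kb of its ends. In Anks1b and Grid1, 1 or 2 peaks stood well above the rest, and in Myt1l there were 4.

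With 7 deep peaks each came Hivep3, Hs6st3, Dab1, Dlg2, Atxn1 and Prkce, besides Dpp6, which the naming rule left out by its lower fold. Hivep3, a large zinc finger protein gene, had a highest fold of 21.0, and Hs6st3, a heparan sulfate sulfotransferase gene, had 18.4. Dab1, the adaptor of reelin signalling, had 15.95, and Dlg2, which encodes the postsynaptic scaffold PSD-93, had 15.6. Atxn1, the ataxin 1 gene, had 12.4, and Prkce, a protein kinase C gene, had 12.2. These genes differed in density, from 3.66 per Mb in Dlg2 with 1.91 Mb of territory to 20.3 per Mb in Hivep3. A few small territories were denser, chosen after their values were seen: Adcy5 had 5 peaks in 91.2 kb, Camk2b 4 in 36.7 kb and Smurf1 4 in 29.4 kb.

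Length alone did not give many peaks. The 25 genes with the most deep territory, chosen after values were seen, had 80 deep peaks in 38.0 Mb, or 2.104 per Mb, with 15 of the 80 in Rbfox1. Ptprd, a receptor phosphatase gene with 2.21 Mb, had 3, as did Cntnap2, a neurexin family gene with 2.18 Mb, and Lrp1b with 2.00 Mb. Lsamp, a cell adhesion gene with 2.02 Mb, had 2. No deep peak was in Pcdh15, Gpc5, Lrrc4c or Lingo2.

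Neighbouring deep peaks of 1 gene were a median of 41.4 kb apart (quartiles 13.6 and 106 kb, 758 gaps), and 155 gaps were at most 10 kb. The closest pair, in the netrin receptor gene Dcc, was 505 bp apart. Peaks did not gather on the side of the annotated start: 634 of 1271 peaks in genes of known strand were on that side of the midpoint (49.9%, 47.1 to 52.7), which held 50.1% of the territory. Only 7 deep peaks lay in overlapping spans of 2 genes. Of the 895 hosts, 410 also had a peak less than 30 kb from one of their ends (45.8%), as did 1042 of the 2969 other genes with deep territory (35.1%). The share was higher among hosts in each of 6 ranges of territory, from 56.3% against 37.9% below 50 kb to 37.1% against 12.5% above 1000 kb, where only 8 genes were without a deep peak.

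The host genes were then grouped by lists of genes by function or cell type, which were drawn up with earlier results of these peaks known. For each list the genes with any deep territory, the hosts among them and the peaks per Mb are given beside the 23.2% of hosts and 3.56 per Mb over all genes. Longer genes are hosts more often, so the density is the closer comparison. It is a description and not a test of the list. Peaks are assigned to the gene they lie in, and the gene they may act on is not known from these data.

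The striatal projection neuron genes had the densest deep peaks. Of 19 such genes with deep territory 14 were hosts, with 67 peaks, or 14.98 per Mb (11.6 to 19.0), 4.21 times the density of all deep territory. Without Pde10a, which held 12 of the 67, the density was 13.5 per Mb. Phactr1, described above, was also in this list and held 11 of them. Of the 67, 21 had folds of 10 or more (31.3%), where all autosomal peaks had 24.0%. No interval was computed for this share, which rests on few peaks. The median fold in this list was 6.83 and the median width 249 bp, close to the 6.79 and 253 bp of all deep peaks. Adcy5, the main adenylyl cyclase gene of the striatum, had 5 peaks on chromosome 16 between 39.1 and 77.8 kb from its start, with folds of 11.1, 17.2, 6.20, 25.05 and 11.7. Of these 5, 4 were therefore at or above 10. Arpp21, which encodes a cAMP-regulated phosphoprotein, had folds of 18.2 and 5.16.

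Of the transcription factor genes in this list, 4 were hosts and Foxp2 and Ebf1 were not. Foxp1, a forkhead factor gene, had 5 deep peaks, with 15.1 at 51.4 kb from its start and 4 of 4.38 to 6.35. Rarb had 4, of 14.6, 5.55, 7.53 and the 4.90 at its internal start shown above. Meis2, a homeodomain factor gene, had 4 with a highest fold of 9.77, and Bcl11b, the gene of CTIP2, had 2 of 11.5 and 5.87. Signalling and calcium genes of the list were Pde7b with 4 (highest 16.7), Ryr3 with 4 (14.0), Camk2b with 4 (12.4), Ano3 with 4 (9.64), Itpr1 with 4 (7.66) and Gnal with 2 (7.43). Drd2, Rgs9 and Gng7 had no deep peak, but their deep territory was only 7.82, 12.8 and 6.30 kb. Within 30 kb of the ends of these genes lay 3, 4 and 10 peaks. Of the 19 genes, 13 also stood in another list, so the lists are not independent of each other.

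Calcium channel and release genes came next, with 18 of 28 as hosts and 55 peaks, or 7.62 per Mb (5.74 to 9.92). Cacna1c, the L-type channel gene, had 5 deep peaks, with 24.4 on chromosome 6 at 118914123 to 118914502 and 4 of 4.25 to 6.85. Atp2b2, a plasma membrane calcium pump gene, had 6, of 5.50, 20.1, 5.80, 13.6, 6.20 and 4.91. Itpr2, an inositol trisphosphate receptor gene, had 18.2 and 4.09. In each of these genes 1 or 2 peaks stood well above the rest.

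Cyclic nucleotide and kinase genes had 6.16 per Mb (4.76 to 7.83) from 66 peaks in 19 of 38 genes, and 5.23 without Pde10a. Of the 66, 12 in Pde10a, 5 in Adcy5, 4 in Pde7b and 4 in Camk2b were counted in the striatal list too. The density without all of these shared genes was not computed. Akap6, an anchoring protein of protein kinase A, had a fold of 20.2. Glutamate receptor and scaffold genes had 5.15 (4.10 to 6.37) from 84 peaks in 23 of 33 genes, led by Grid1, Magi1 and Anks1b. The lower bounds of both lists, with shared genes counted in, were above the 3.56 of all deep territory.

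Other channel and receptor lists had intervals that took in the overall density. GABA receptor and synthesis genes had 4.88 per Mb (2.52 to 8.52) from 12 peaks in 4 of 14 genes. Among them Gabrg3, a GABA-A subunit gene, had 5 of 4.90 to 9.72, and Gabbr2, a GABA-B subunit gene, had 17.6, 9.21 and 14.7. Potassium and sodium channel genes had 4.85 (3.46 to 6.60) in 21 of 31 genes. Kcnab1 had 6 deep peaks, with 16.3 and 10.4 besides the 5.49 at its internal start. Kcnh1 had a highest fold of 15.5 and Kcnk2 of 12.7.

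Transcription factor and chromatin genes as a whole had 3.49 per Mb (2.65 to 4.52) in 23 of 59 genes, near the density of all deep territory. Besides Auts2, Foxp1 and Rarb the highest fold was in Rere, a nuclear receptor coregulator gene, at 15.95. Axon guidance genes had 2.68 (1.80 to 3.86) in 13 of 32, with Ephb2 at 12.05, Plxna4 at 10.98 and Dcc at 10.05. Synaptic adhesion genes had 32 hosts of 46 and 87 peaks, at 2.32 per Mb (1.86 to 2.86), 0.650 times the density of all deep territory. Many of these genes are very long, with 37.6 Mb of deep territory in sum. Over all genes of 500 to 1000 kb of deep territory the density was 2.81, and above 1000 kb it was 2.46. Their highest folds were in Sdk1 at 22.45, Ntm at 21.0 and Dscaml1 at 17.9.

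Lists of other cell types were compared in the same way. Oligodendrocyte genes had 4.85 peaks per Mb (2.96 to 7.49) in 11 of 17 genes, with highest folds of 13.02 in Slc24a2, 12.4 in Frmd4b and 12.4 in Mbp, the myelin basic protein gene. Astrocyte genes had 2.85 (1.52 to 4.88) from 13 peaks in 4 of 14 genes, and 10 of the 13 were in Slc4a4. Without Slc4a4 the density was 0.719, with the peaks in Prex2 (5.08), Gli3 (3.54) and Rgs20 (6.30). Muscle and liver genes had 2.67 (0.728 to 6.84) from 4 peaks in 13 genes, in Actn2 (13.4), Trdn (8.47), Ryr1 (7.04) and Glis3 (6.52). Microglia and vessel genes had no deep peak in 17 genes and 2.65 Mb, with an upper limit of 1.39 per Mb by the same exact interval. Of these genes, 4 also stood in another list. Among them were Arhgap15 with 587 kb of deep territory, Elmo1 with 458 kb and Ebf1 with 330 kb. Ebf1 was counted in the striatal list too, so this result is not independent of the other lists. Marker RNA was not measured, so the labelled tissue was not checked by expression.

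**Figure D5:**
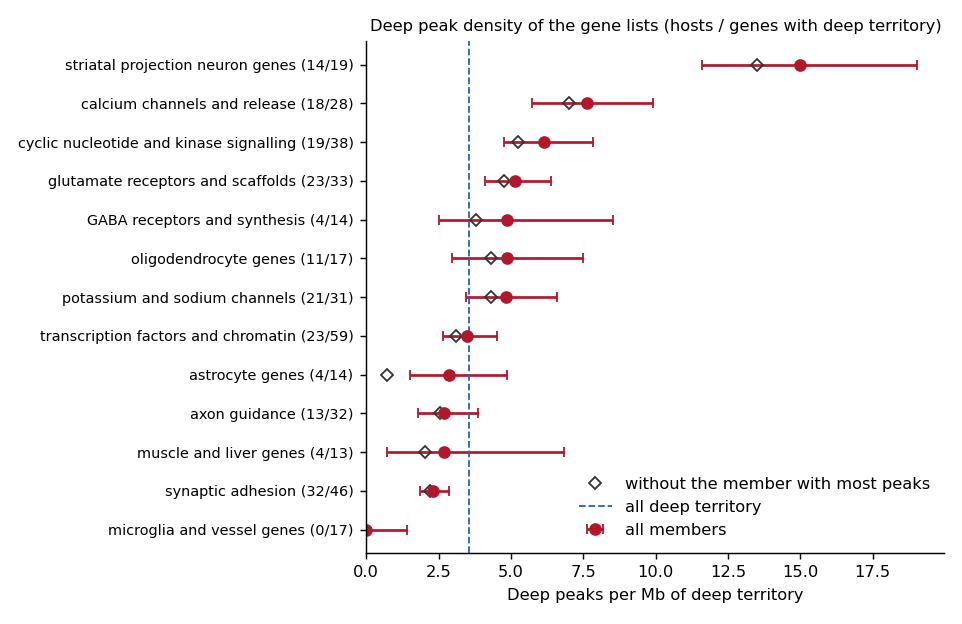
Deep peaks per Mb of deep territory for 13 gene lists, with hosts and genes with deep territory in brackets. Filled points are all members with 95% exact Poisson intervals, open diamonds leave out the member with the most peaks, and the dashed line is all deep territory at 3.56 per Mb. Striatal projection neuron genes had 14.98 per Mb, and astrocyte genes had 0.719 without Slc4a4.

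The genes of the experiment itself differed in how much deep territory they had. Thrb, the gene of thyroid hormone receptor beta, spans 381 kb with 318.5 kb of deep territory. It had 1 deep peak, or 3.14 per Mb, where all deep territory had 3.56, and 2 peaks in its whole span. A density that rests on 1 peak cannot place Thrb above, below or near that value. The deep peak was on chromosome 14 at 17701039 to 17701219, with a fold of 4.48 and a pileup of 16.9, 41.9 kb from the start of Thrb. Gad2, the driver's gene, had 12.9 kb of deep territory and no deep peak, with 1 peak in its whole span. Thra spans 28.2 kb and has no deep territory, and 1 peak lay in its span. Per chromosome the density was between 2.99 per Mb on chromosome 1 and 4.69 on chromosome 5.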

How the data were processed

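ChIP-seq peaks of GS-TRα1 from mouse striatum were analysed from 1 list for 4 libraries. The submitters' processing notes name MACS2 2.1.1.20160309.0, Bowtie2 2.3.4.2 and, as builds, GRCm38 and mm10. Settings, and whether IP fractions were pooled, are not given in the sources used here. Each peak has, per the file headers, a width, a summit and a pileup signal at that summit. Fold enrichment as deposited is a ratio on a linear scale over local background, and the deposited p-value and q-value columns are −log10 values. No column was for a single sample, so no test between libraries was made. Depth per library was not used here.

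Each summit was placed against the spans of 20665 autosomal protein-coding genes (RefSeq, GRCm38.p6). Deep territory was counted base by base from the same spans, and densities carry 95% exact Poisson intervals. The local background was recomputed as (pileup + 1) / fold − 1. Strand was known only for genes matched to the RefSeq start table, 3005 of 3864. Of sequence, only the RefSeq start windows were used, so receptor motifs were not searched over the peaks as a whole, and exons and introns were not analysed. Python 3.11.15, pandas 2.3.3 and scipy 1.17.1 were used, and the density code was tested on simulated data.

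Members and lists were chosen with earlier results of these data known. Named genes were the 15 hosts with the most peaks, the hosts of the 15 highest folds, 5 highest pileups and 5 widest peaks, up to 3 members per list by fold, and Thra, Thrb and Gad2. Other genes were named after their values were seen, and 1 list and some genes are not reported here. Alternatives were a −log10 q of at least 10, folds above the median, removal of extremes or of high background, distances of 20, 50 and 100 kb, ends of genes of any type, and lists without the member with the most peaks. The last was chosen after seeing the data.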

Additional observations from a re-analysis of the deposited data

Results flagged for a closer look

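Chromosome X was outside the autosomal rule, and 6 of its peaks met the same conditions of position. Among them were peaks in Gpm6b (fold 11.75), Pak3 (9.12), Cask (8.94), Gria3 (7.93) and Tbl1x (7.50). Cask encodes a synaptic scaffold and Gria3 an AMPA receptor subunit. The deep territory of chromosome X was 22.5 Mb, which gave 0.267 peaks per Mb (0.0979 to 0.581), or 0.0749 times the autosomal density (0.0274 to 0.163). Of the 7484 peaks in all, 7412 were autosomal, so peaks of any class were few off the autosomes. Whether the low density on chromosome X was particular to deep positions was not tested.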

How the results depend on the processing

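The deep set was fixed by annotation and distance, so its size moved with both. There were 827 deep peaks (20.9% of autosomal peaks) at a −log10 q of at least 10 in the authors' deposited table, 763 (20.8%) above the median fold, 617 (8.32%) at 100 kb and 1057 (14.3%) with the ends of genes of any type. The share was 27.1% at 20 kb and 15.7% at 50 kb. The density ratio to distal intergenic positions was 2.39, 2.36 and 3.15 under the q minimum, the median fold and ends of any type. Hosts numbered 576 and 542 under the first pair of these, 589 at 50 kb and 295 at 100 kb. Hosts with several peaks numbered 159, 147, 143 at 100 kb and 221 with ends of any type. The list ratio of glutamate genes was 1.81 at 100 kb, and that of astrocyte genes 0.202 without Slc4a4. List ratios that rest on few peaks ranged widely, from 0.316 to 1.21 for muscle and liver genes and from 1.06 to 1.97 for GABA genes, and hosts numbered up to 1116. Deep minus other autosomal peaks, the median width differed by -10 to -4 bp, the median fold by -0.353 to -0.133 and the median pileup by 0 in the alternatives run. The list ratio of striatal projection neuron genes stayed between 3.57 and 4.87. No paired analysis was possible because the list has no value per library. Peaks of low pileup are near the limit of detection, and no spread between fractions can be had.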
